A study of Mus musculus with 2 samples.

Results

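The insulin-like growth factor (IGF) genes were examined in RNAseq of sorted tongue epithelial cells of newborn mice. They were chosen by symbol: the ligand genes *Igf1* and *Igf2*, the receptor genes *Igf1r* and *Igf2r*, and the binding protein genes *Igfbp2* to *Igfbp7*, 10 genes of 21628 entries in the deposited table. All 10 had a value in both libraries. The mice carried *Sox2GFP*, an allele that reports expression of the transcription factor SOX2 by green fluorescence, and both populations came from the same pooled lingual epithelium at P0, the day of birth. Dissociated cells were sorted by fluorescence into GFP-high and GFP-low cells, and RNA of about 100000 cells of each was sequenced as 1 library. With 1 library per population, no difference given here has a replicate check, and there are no p-values. The bins were cut from a continuum of fluorescence, and a fluorescence-negative population was not analysed here.

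IGF1 and IGF2 are secreted peptides that act through the receptor tyrosine kinase IGF1R, which signals through insulin receptor substrates to the PI3K-AKT-mTOR and MAPK pathways. IGF2R, the cation-independent mannose 6-phosphate receptor, has no kinase and carries IGF2 into the cell for degradation. The secreted IGF binding proteins hold IGFs outside the cell, where they can prolong their life, withhold them from the receptor or, after cleavage by proteases, release them. *Igf2* is imprinted and is a major growth factor gene of the fetus and newborn in rodents.

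Expression is given in FPKM, fragments per kilobase of transcript relative to all fragments mapped, which corrects for gene length, so that levels can be set beside each other between genes. Folds were taken between the FPKM values of both libraries. A gene was counted as enriched in a population at 5 FPKM or more there and a fold of at least 1.5 over the other, which is not a statistical test. This follows the rule as worded in the study's results, whereas its methods ask for the FPKM minimum in each sample. With the minimum asked of both libraries the counts over all genes were 777 in the GFP-high and 633 in the GFP-low direction, and the IGF genes counted were the same, *Igfbp5* in the former and *Igfbp2* and *Igfbp3* in the latter. Of the 10760 genes at 5 FPKM or more in at least 1 library, 9.48% were enriched in the GFP-high and 8.9% in the GFP-low library. GFP-high genes made up 51.6% of the enriched genes with FPKM as deposited, 39.8% when each library was divided by its summed FPKM (TPM), and 56.4% under median ratio scaling, which sets the median ratio of genes expressed in both libraries to 1.

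Sorting was reflected in the reporter gene, since *Sox2* had 112 FPKM in the GFP-high and 59.02 FPKM in the GFP-low library. Basal keratinocyte markers were abundant in both populations, with a summed FPKM of 25800 (GFP-high) and 33000 (GFP-low) over 7 genes, and all 7 were higher in GFP-low cells. All 8 suprabasal keratinocyte markers were higher in GFP-high cells (summed FPKM of 73400 and 32600), as were all 9 taste bud and taste progenitor markers (673 and 189), which include genes that the study named from these libraries. Connective tissue markers were also present. Of 11 fibroblast markers, 10 were higher in GFP-low cells, with a summed FPKM of 496 (GFP-high) and 2310 (GFP-low), and each was above 0 in both libraries. In a bulk library, fewer cells of a type and less RNA per cell cannot be told apart.

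Across the family, *Igfbp5* was the gene enriched in GFP-high cells, and *Igfbp2* and *Igfbp3* were enriched in GFP-low cells. The other 7 genes were in neither group, and *Igf1* among them could not be counted, being under 5 FPKM in both libraries. Among the 9 that could be counted, 1 was enriched toward GFP-high and 2 toward GFP-low. The matching shares over all genes that could be counted were 9.48% and 8.9%. Counts this small cannot tell the family apart from these shares. By level alone, 8 of the 10 genes were higher in GFP-low cells, and *Igf2* and *Igfbp5* were higher in GFP-high cells. Of the 9 genes at 5 FPKM or more in at least 1 library, 7 were higher in GFP-low cells at any fold, against 55.4% of all such genes. The median difference in log2(FPKM + 1), GFP-high minus GFP-low, was −0.43 over the 10 genes and −0.04 over all genes at 5 FPKM or more in at least 1 library.

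**Figure D1:**
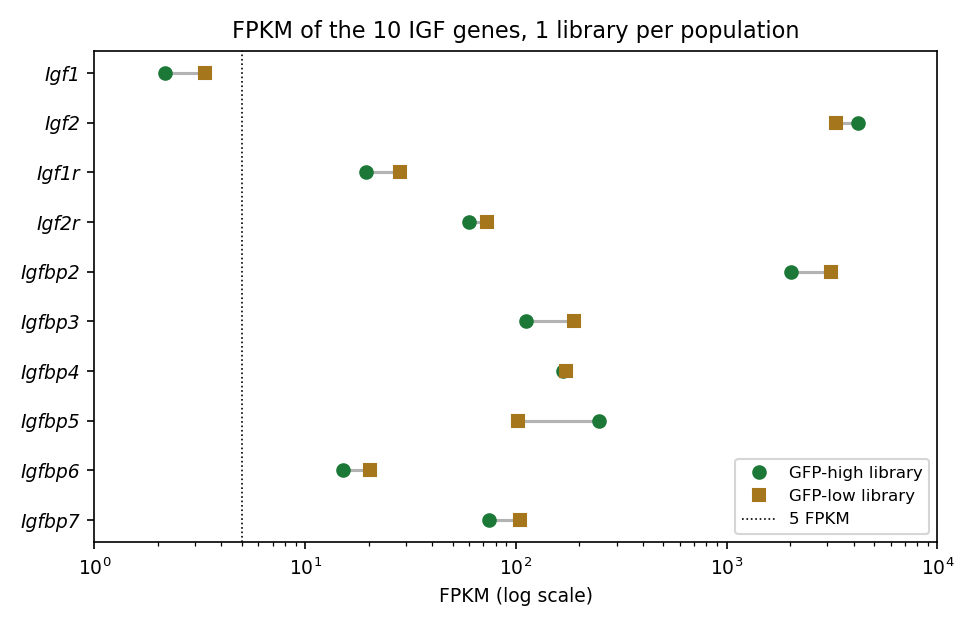
FPKM of the 10 IGF genes on a log axis, with circles for the GFP-high library and squares for the GFP-low library, 1 library each; the dotted line marks 5 FPKM. *Igf2* and *Igfbp2* stand farthest to the right in both libraries, *Igf1* lies under 5 FPKM in both, and the widest gap is that of *Igfbp5*.

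Of the ligand genes, *Igf2* (ENSMUSG00000048583, mm10 chromosome 7, 142650766–142666816) had 4178 FPKM in the GFP-high and 3306 FPKM in the GFP-low library. It was the gene with rank 16 by FPKM in GFP-high cells and rank 21 in GFP-low cells among 21590 genes. Its fold of 1.26 in favor of GFP-high cells was under the threshold. Of the 50-nt windows of its annotated transcripts, 62.1% also occur in transcripts of other annotated genes, namely *Gm49394*, which overlaps *Igf2* on the same strand, and the antisense gene *Igf2os*. Reads from these windows could be assigned to either gene, and the assignment used for the deposited values is not given in the sources used here.

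*Igf1* (ENSMUSG00000020053, chromosome 10, 87858265–87937042) was the gene with the lowest expression of the family, with 2.16 FPKM in the GFP-high and 3.34 FPKM in the GFP-low library. The fold of 1.55 in favor of GFP-low cells came from values under 5 FPKM in both libraries, so *Igf1* was not counted as enriched. Its 8 annotated coding transcripts are between 510 and 7052 nt long. At the depths estimated for these libraries, about 27500000 reads for GFP-high and 35500000 for GFP-low cells, its values correspond to between 18 and 407 reads in the GFP-high and between 37 and 812 in the GFP-low library, depending on the transcript. The 95% counting interval of the fold runs from 0.884 to 2.71 for the shortest transcript, which includes no difference, and from 1.37 to 1.74 for the longest, and covers counting error only. Both intervals rest on the estimated depths and would be narrower at the about 75 M reads per library of the labels. Whether the interval for the shortest transcript includes no difference therefore depends on the estimate.

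The ligand genes therefore differed in level by a factor of 1934 in the GFP-high and 989.8 in the GFP-low library, in favor of *Igf2* in both. A ratio of genes within a library does not depend on how the libraries are scaled to each other. Both factors are approximate, because they rest on the low values of *Igf1* and on the shared windows of *Igf2*.

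Both receptor genes were well expressed and lower in GFP-high cells, without reaching the threshold. *Igf1r* (ENSMUSG00000005533, chromosome 7, 67952827–68233668), which encodes the signaling receptor, had 19.5 FPKM in the GFP-high and 28.3 FPKM in the GFP-low library. Its fold of 1.45 was just under the threshold and became 1.56 on the TPM scale. *Igf2r* (ENSMUSG00000023830, chromosome 17, 12682406–12769664), which encodes the clearance receptor, had 59.8 and 73.03 FPKM, a fold of 1.22 in favor of GFP-low cells. *Igf2r* exceeded *Igf1r* 3.07-fold in the GFP-high and 2.58-fold in the GFP-low library. The level of *Igf2* was 214 times that of *Igf1r* in the GFP-high and 117 times in the GFP-low library, and 69.9 and 45.3 times that of *Igf2r*.

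The insulin receptor gene *Insr*, whose product can pair with IGF1R in hybrid receptors, had 14.2 FPKM in the GFP-high and 13.7 FPKM in the GFP-low library. It was the most abundant of 7 genes for insulin, related receptors and other IGF carriers, and the 1 gene of that list at 5 FPKM or more. *Igfals*, the subunit that joins IGF and binding protein in a circulating complex, had 1.78 and 2.11 FPKM. *Ins2* is listed at 0 in both libraries.

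The binding protein genes spanned more than 2 orders of magnitude in level. *Igfbp2* (ENSMUSG00000039323, chromosome 1, 72824503–72852474) was the most abundant in both libraries, with 2022 FPKM in the GFP-high and 3118 FPKM in the GFP-low library. By FPKM it had rank 44 in GFP-high and rank 25 in GFP-low cells among all genes. Its fold of 1.54 in favor of GFP-low cells lay just over the threshold, and after the GFP-low values were multiplied by 0.973, the median GFP-high to GFP-low ratio where both libraries reached 5 FPKM (median ratio scaling), it fell just under 1.5 and was no longer counted.

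*Igfbp3* (ENSMUSG00000020427, chromosome 11, 7206086–7213923), which encodes the main IGF carrier of blood plasma, had 112 FPKM in the GFP-high and 189 FPKM in the GFP-low library. Its fold of 1.69 was the largest in favor of GFP-low cells among the 10 genes, and it passed the threshold under each scaling tried. *Igfbp1*, its neighbor at a distance of 3.5 kb, had 0.08 FPKM in the GFP-high library, with 0 listed for the GFP-low library.

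*Igfbp5* (ENSMUSG00000026185, chromosome 1, 72857932–72874884), which encodes a binding protein that attaches to extracellular matrix, had 249 FPKM in the GFP-high and 103 FPKM in the GFP-low library. The fold of 2.42 in favor of GFP-high cells was the largest of the family, and 4.16% of genes at 5 FPKM or more in at least 1 library reached a 2-fold enrichment in that direction. It was 2.26 on the TPM scale and 2.49 with median ratio scaling. *Igfbp5* and *Igfbp2* lie tail to tail on opposite strands with 5.5 kb between them, and they were enriched in opposite populations.

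The proximal promoters of these 3 genes are shown because they are the family members that met the threshold, in opposite directions. Each is a RefSeq window (GRCm38.p6) from 250 bases before to 50 bases after the annotated start, read 5′ to 3′ on the strand of the gene. Capitals mark matches to the GC box GGGCGG, the binding motif of SP1-type factors, on either strand. The windows are chr1:72824230-72824529 (plus strand) for *Igfbp2*, chr11:7213874-7214173 (minus strand) for *Igfbp3* and chr1:72874816-72875115 (minus strand) for *Igfbp5*.
Igfbp2: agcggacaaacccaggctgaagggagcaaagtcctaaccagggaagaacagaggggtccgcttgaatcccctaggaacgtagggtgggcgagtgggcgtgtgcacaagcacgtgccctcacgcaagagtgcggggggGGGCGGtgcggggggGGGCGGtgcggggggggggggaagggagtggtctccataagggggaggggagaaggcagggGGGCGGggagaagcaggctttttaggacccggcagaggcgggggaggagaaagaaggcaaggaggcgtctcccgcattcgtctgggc
Igfbp3: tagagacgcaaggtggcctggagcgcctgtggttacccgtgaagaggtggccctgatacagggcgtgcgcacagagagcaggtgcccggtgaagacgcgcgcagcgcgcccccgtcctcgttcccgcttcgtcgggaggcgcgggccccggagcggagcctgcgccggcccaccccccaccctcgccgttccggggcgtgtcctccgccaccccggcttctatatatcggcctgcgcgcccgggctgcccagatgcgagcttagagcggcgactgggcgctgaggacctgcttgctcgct
Igfbp5: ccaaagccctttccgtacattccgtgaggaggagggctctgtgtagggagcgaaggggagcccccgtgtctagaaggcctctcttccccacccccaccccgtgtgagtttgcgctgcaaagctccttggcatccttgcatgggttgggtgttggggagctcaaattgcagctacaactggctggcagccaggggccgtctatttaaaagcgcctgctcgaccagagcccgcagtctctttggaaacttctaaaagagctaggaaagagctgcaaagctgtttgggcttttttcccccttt

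The *Igfbp2* window shown holds 3 GC boxes, at 113, 98 and 37 bases before the start, and the *Igfbp3* and *Igfbp5* windows hold none. A second RefSeq window of *Igfbp2*, chr1:72825137-72825436, is not shown, and it holds none of the motifs searched, with a GC content of 57.3% and 14 CpG dinucleotides. The motif occurs in 35.7% of the 32851 promoter windows of the RefSeq table. The GC content was 67% for *Igfbp2*, 71.7% for *Igfbp3* and 56.3% for *Igfbp5*, against a median of 52.7%. The *Igfbp3* window holds 37 CpG dinucleotides, *Igfbp2* 18 and *Igfbp5* 10, against a median of 7. The letters CATTGT, a core recognized by SOX factors, are in 12.6% of all windows and in none of these 3. Neither TATAAA (13.6% of windows), nor the forkhead core TGTTTAC (3.65%), nor the GLI site GACCACCCA (0.253%) was found in them. All searches covered both strands. A match is a description of the letters, and a missing match says nothing about the factor.

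The other 3 binding protein genes did not reach the threshold. *Igfbp4* (ENSMUSG00000017493, chromosome 11, 99041244–99054392) had nearly the same level in both libraries, with 167 FPKM in the GFP-high and 172 FPKM in the GFP-low library. Of its 50-nt windows, 1.72% also occur in transcripts of other genes. *Igfbp7* (ENSMUSG00000036256, chromosome 5, 77349240–77408041), which encodes a protein with low affinity for IGFs, had 74.8 and 104 FPKM, a fold of 1.39 in favor of GFP-low cells. Exons of *Igfbp7* overlap those of *Polr2b* on the opposite strand, and 2.99% of its 50-nt windows are shared with it. *Igfbp6* (ENSMUSG00000023046, chromosome 15, 102144362–102149511), which encodes a binding protein that prefers IGF2, was the least abundant, with 15.1 and 20.3 FPKM, a fold of 1.35 in favor of GFP-low cells.

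**Figure D2:**
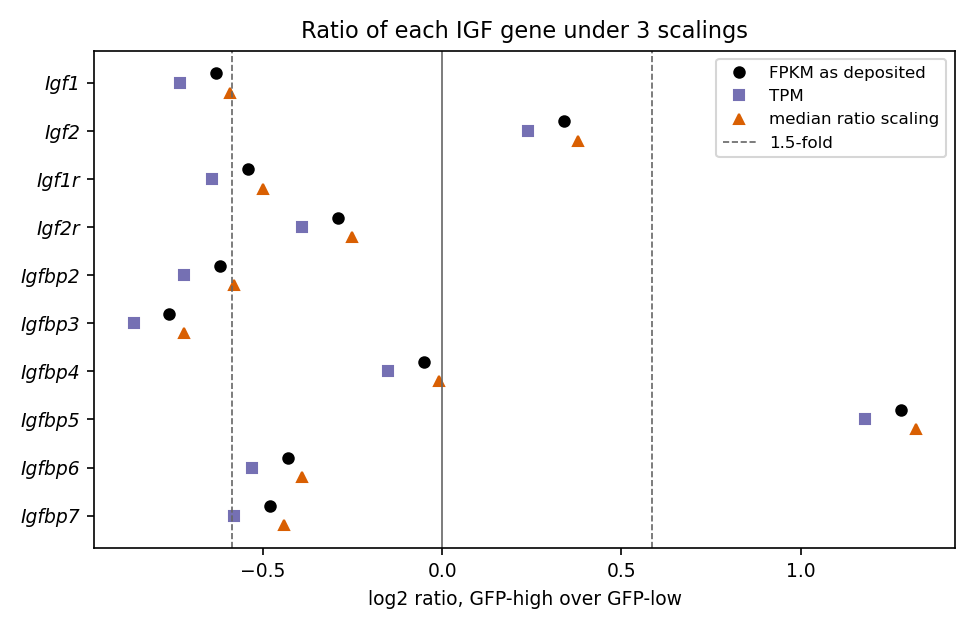
Log2 ratio of GFP-high over GFP-low for each IGF gene, from FPKM as deposited (circles), TPM (squares) and median ratio scaling (triangles); dashed lines mark a 1.5-fold difference. *Igfbp5* lies beyond the line in favor of GFP-high cells and *Igfbp3* beyond the line in favor of GFP-low cells under each scaling, as does *Igf1*, which is under 5 FPKM in both libraries, while *Igfbp2* and *Igf1r* cross it.

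Summed over the 6 binding protein genes, FPKM came to 2639 for GFP-high and 3707 for GFP-low cells, 1.4-fold more in GFP-low cells. *Igfbp2* made up 76.6% of the GFP-high and 84.1% of the GFP-low sum. *Igfbp5* made up 9.42% of the GFP-high and 2.77% of the GFP-low sum, and it ranked 2 of 6 in abundance in the GFP-high and 5 of 6 in the GFP-low library. The ratio of *Igfbp2* to *Igfbp5* was 8.13 in the GFP-high and 30.4 in the GFP-low library, a 3.74-fold difference that is independent of the scaling of the libraries. *Igf2* exceeded the summed binding proteins 1.58-fold in GFP-high cells and was 0.892 of their sum in GFP-low cells.

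**Figure D3:**
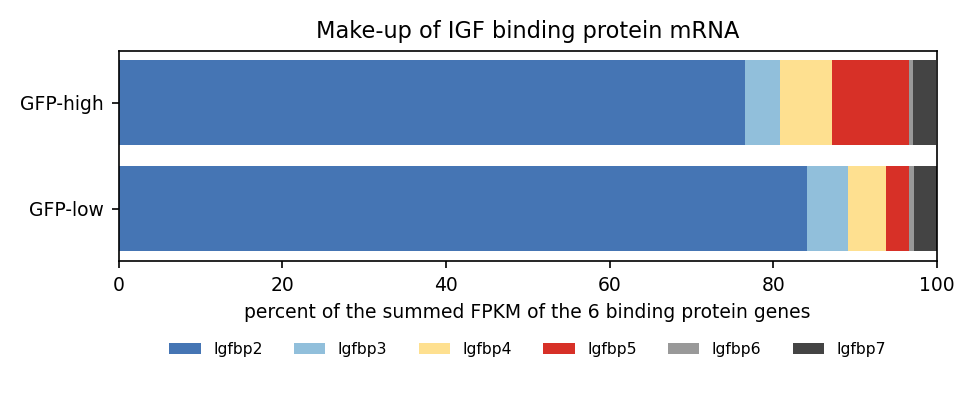
Share of each binding protein gene in the summed FPKM of all 6, in percent, for the GFP-high library (upper bar) and the GFP-low library (lower bar). *Igfbp2* fills 76.6% and 84.1% of the bars, and the segment of *Igfbp5* is 9.42% and 2.77%.

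The genes nearest to *Igfbp5* in the levels of both libraries, by distance in log2(FPKM + 1), were *Rnd3* (251 and 99.5 FPKM), *Meis2* (249.8 and 107 FPKM) and *Plb1* (261 and 97.4 FPKM, each GFP-high first). Nearest to *Igfbp2* were *Sepn1* (1985 and 3135 FPKM), *Fxyd3* (1752 and 3209 FPKM) and *Hnrnph1* (2435 and 3554 FPKM). The likeness rests on 2 libraries and describes levels only.

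**Figure D4:**
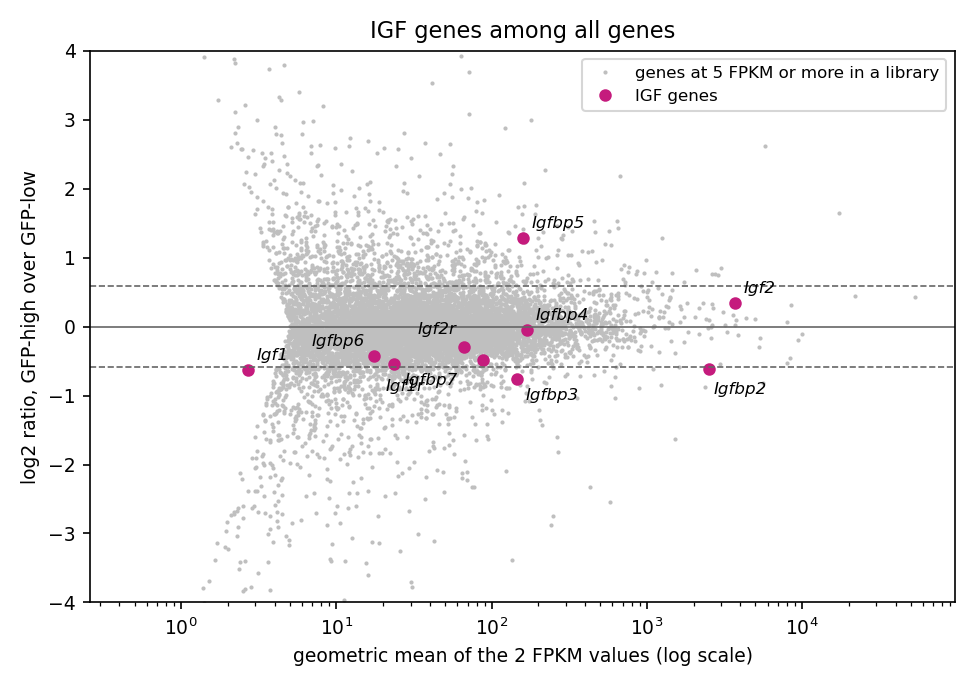
Log2 ratio of GFP-high over GFP-low against the geometric mean of both FPKM values (log axis) for genes at 5 FPKM or more in at least 1 library (grey) and the 10 IGF genes (magenta); dashed lines mark a 1.5-fold difference, and 65 genes with ratios beyond 4 in size on the log2 scale are outside the plot. *Igf2* and *Igfbp2* lie among the most abundant genes on opposite sides of 0, and *Igfbp5* stands over the upper line.

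Markers of connective tissue and other cells also differed between the 2 libraries, in both directions. The summed FPKM of the 11 fibroblast markers was 4.65-fold higher in GFP-low cells, led by *Col3a1* (193 and 966 FPKM, GFP-high first) and *Dcn* (143 and 504 FPKM). The 8 Schwann lineage markers had a summed FPKM of 67.9 and 279, and *Erbb3* among them had 60.3 and 66.9 FPKM. Of 8 pericyte and smooth muscle markers (115 and 164 FPKM summed), 7 were higher in GFP-low cells, among them *Acta2* (16.3 and 49.5 FPKM). The exception, *Notch3* (57.04 and 38.05 FPKM), was the most abundant of them in GFP-high cells, but not in GFP-low cells. By comparison, the largest fold of an IGF gene in favor of GFP-low cells was 1.69. The summed basal keratinocyte markers were 1.28-fold higher in GFP-low cells, and the summed suprabasal markers were 2.25-fold higher in GFP-high cells. In favor of GFP-high cells, 8 of 9 endothelial markers (40.7 and 29.5 FPKM summed), all 6 mast cell markers (59.6 and 31.6 FPKM, *Fcer1a* listed at 0 in GFP-low cells) and 6 of 8 skeletal muscle markers (15.8 and 11.8 FPKM) were higher. Of the 7 leukocyte markers with a value, 3 were higher in GFP-high cells (17.8 and 20.1 FPKM). These counts of direction include low values. Only 2 of the endothelial, 4 of the mast cell, 1 of the skeletal muscle and 1 of the leukocyte markers reached 5 FPKM in at least 1 library. The part of these cells in the IGF gene differences was not tested.

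Other genes of the pathway were followed in 6 lists with 59 genes, of which 57 had a value and 44 reached 5 FPKM in at least 1 library. Of these, 6 (13.6%) were enriched in GFP-high cells, against 9.48% of all genes, and 4 (9.09%) in GFP-low cells, against 8.9%. Among 8 genes for proteases that cleave binding proteins and for their inhibitors, *Pappa*, a protease best known for cleaving IGFBP4, had 4.21 FPKM in the GFP-high and 19.9 FPKM in the GFP-low library, a fold of 4.72 in favor of GFP-low cells. *Pappa* was not counted when 5 FPKM was required in both libraries. *Adamts1*, a secreted metalloprotease, had 139 and 67.6 FPKM, a fold of 2.05 in favor of GFP-high cells. *Htra1*, a secreted serine protease, was the most abundant of them, with 167 and 194 FPKM. *Stc1* and *Stc2*, the stanniocalcin inhibitors of pappalysins, were at 1.51 FPKM or less.

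The substrates of the receptors differed in direction. *Irs2* had 48.95 FPKM in the GFP-high and 29.95 FPKM in the GFP-low library, a fold of 1.63 in favor of GFP-high cells. *Irs1* had 4.55 and 7.15 FPKM, a fold of 1.57 in favor of GFP-low cells that fell under the threshold with 1 added to each FPKM. *Irs1* was also not counted when 5 FPKM was required in both libraries. *Grb10*, an imprinted adaptor that restrains signaling by insulin and IGF receptors, had 28.9 and 53.4 FPKM, a fold of 1.85 in favor of GFP-low cells. The other 7 of 10 substrates and adaptors were not enriched in either population, among them *Shc1* (62.9 and 65.8 FPKM) and *Sos2* (50.9 and 63.5 FPKM).

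Further downstream, 19 of 20 PI3K-AKT-mTOR genes were enriched in neither population. *Akt1* (280 and 316 FPKM, GFP-high first) and *Pik3r2* (151 and 154 FPKM) were the most abundant. *Pik3cb*, which encodes a catalytic subunit of PI3K, was the exception, with 10.1 FPKM in the GFP-high and 6.47 FPKM in the GFP-low library. Its fold of 1.57 fell under the threshold on the TPM scale and with 1 added to each FPKM.

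The genes for IGF2 mRNA-binding proteins, which bind *Igf2* transcripts and regulate their translation and stability, were expressed in both populations. *Igf2bp2* had 75.3 FPKM in the GFP-high and 113 FPKM in the GFP-low library, *Igf2bp3* had 36.9 and 29.5 FPKM, and *Igf2bp1* had 22.04 and 23.3 FPKM. None was enriched, and *Igf2bp2* passed the threshold in favor of GFP-low cells on the TPM scale.

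Of 9 imprinted growth genes with a value, 3 were enriched in the GFP-high and 1 in the GFP-low library. All 9 reached 5 FPKM in at least 1 library, and the shares over all such genes were 9.48% and 8.9%. *Dlk1*, which encodes a transmembrane relative of the Notch ligands, had 742 FPKM in the GFP-high and 288 FPKM in the GFP-low library, a fold of 2.58. *Zim1* (32.5 and 15.4 FPKM, fold 2.1) and the cell cycle inhibitor gene *Cdkn1c* (159 and 104 FPKM, fold 1.53) were also enriched in GFP-high cells, *Cdkn1c* not on the TPM scale. *Mest* was enriched in GFP-low cells, with 16.2 and 26.2 FPKM, a fold of 1.61. *Gnas* was abundant in both populations (692 and 651 FPKM). The imprinted noncoding genes *H19*, next to *Igf2*, and *Meg3* were not analysed here.

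**Figure D5:**
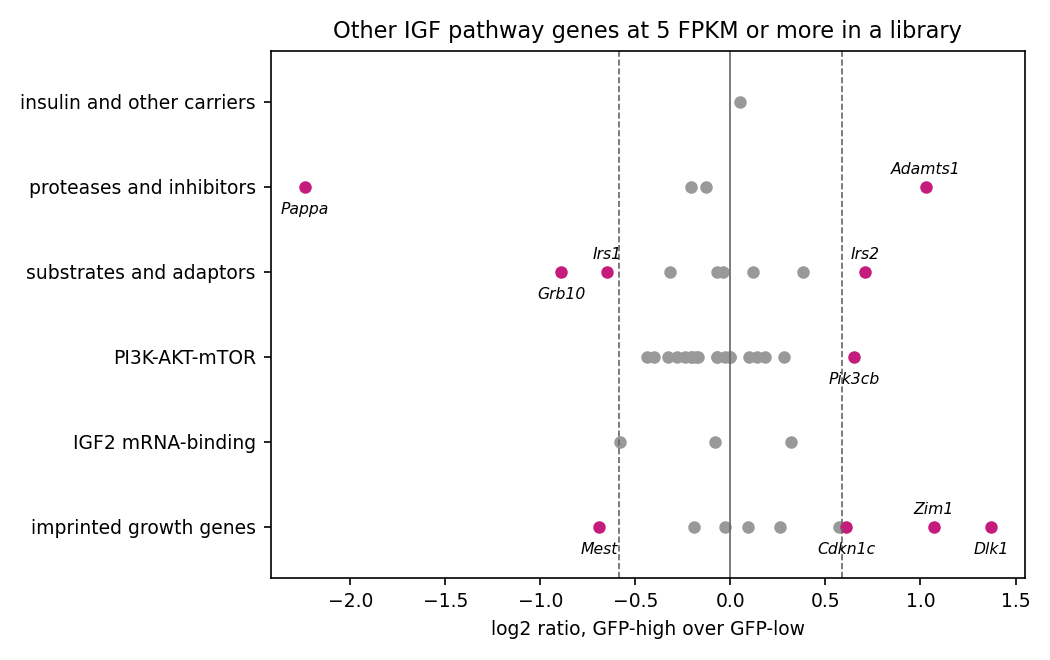
Log2 ratio of GFP-high over GFP-low for the 44 other pathway genes at 5 FPKM or more in at least 1 library, in 6 lists; magenta marks the 10 enriched genes and dashed lines a 1.5-fold difference. *Pappa* lies farthest to the GFP-low side and *Dlk1* farthest to the GFP-high side, and the PI3K-AKT-mTOR genes other than *Pik3cb* lie between the lines.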

How the data were processed

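Libraries of cells sorted as SOX2-GFP high or low (1 each) were made with a stranded mRNA kit and sequenced as single-end reads of 50 nt. The authors trimmed reads with Trimmomatic 0.36, mapped them to mm10 with GSNAP, obtained FPKM with Cufflinks 2.2.1 and deposited FPKM per gene rounded to 2 decimals. The FPKM columns are named means, and each was read as 1 library, the number in the sample labels. A deposited column of the authors' signed folds was not used. Whether counting used strand, and how it split shared reads, is not given in the sources used here.

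Of 21628 entries, 21 typed as other than protein-coding in GENCODE M21 (GRCm38, the build of mm10) and 17 without a number in a library were left out. Folds were computed with pandas 2.3.3 from FPKM with no pseudocount, and medians of lists from log2(FPKM + 1), a scale on which changes of weakly expressed genes look smaller. The members and gene lists were chosen with earlier results of these data known. All 10 members are named, with the enriched and the 2 most abundant genes of each pathway list, the 2 most abundant of the fibroblast, Schwann lineage and pericyte marker lists (the rule set them for all marker lists, and the others are given by counts and sums, and 1 Schwann lineage gene is not reported here), and the 3 genes nearest to the most abundant enriched member in each direction. *Igf2bp1*, *Igfbp1*, *Ins2*, *Stc1*, *Stc2*, *Sox2* and *Fcer1a* were named for their role or after their values were seen.

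The labels give about 75 M reads per library, well over the depths estimated here. Depth was also estimated from genes with 1 annotated transcript of 400 to 2500 nt, as the depth at which most low FPKM, times the length less 200 nt, lay within 0.15 of a whole read (62.9% of 202 values in GFP-high and 62.8% of 148 in GFP-low cells). The depth was chosen to raise this share, and the limits followed an earlier analysis of these values, so it is approximate, and no read counts were recovered. The computation of calls was tested on simulated data. Alternatives were other FPKM minimums (1, 10, none, and 5 in each library), a minimum of 2-fold, a pseudocount of 1 or 0.1, TPM and median ratio scaling.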

Additional observations from a re-analysis of the deposited data

How the results depend on the processing

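No paired analysis was possible because each population has 1 library and no result comes from a test, and no library could be left out. An equal pseudocount in both libraries cannot change the direction of a fold. TPM and median ratio scaling each shift all log2 ratios by a common amount. All 10 IGF genes kept their direction under both scalings, and *Igfbp4* came nearest to a change, with a log2 ratio of −0.01 under median ratio scaling. *Igfbp5* stayed the 1 gene enriched in GFP-high cells under all alternatives. The count enriched in GFP-low cells was 0 at a 2-fold minimum and 1 (*Igfbp3*) with median ratio scaling. It was 3 with an FPKM minimum of 1 or none, which added *Igf1*, and 3 on the TPM scale, which added *Igf1r*. The median difference over the family was −0.45 with a pseudocount of 0.1, −0.51 on the TPM scale and −0.4 with median ratio scaling. The pathway count of 10 became 19 with no FPKM minimum and 4 at a 2-fold minimum. It was 8 with 5 FPKM required in both libraries, which left out *Pappa* and *Irs1*. With a pseudocount of 1 it was also 8, without *Irs1* and *Pik3cb*.

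Over all genes, 1020 were enriched in the GFP-high and 958 in the GFP-low library. These counts were 1541 and 1563 with an FPKM minimum of 1, 3136 and 3250 with none, 448 and 467 at a 2-fold minimum, and 777 and 633 with 5 FPKM required in both libraries. TPM lowers each log2 ratio by 0.10 and takes the GFP-high share of enriched genes from 51.6% to 39.8%, and median ratio scaling takes it to 56.4%. Depth limits *Igf1* most, and the other 9 genes rest on at least 377 estimated reads in each library.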
